A study of Homo sapiens with 8 samples.

Results

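The response of HepG2 cells to E2 was described across genes, from the 2 libraries labelled E2 and the 2 labelled Control, 4 of the 8 libraries analysed here. HepG2 is a human hepatocellular carcinoma line that keeps many hepatocyte functions, such as the making of plasma proteins. All cells grew in phenol red-free medium with charcoal-stripped serum, which removes most steroid hormones, were starved in 0.1% FBS for 16 h and were then treated for 48 h. E2 libraries came from cells given 17β-estradiol (E2) at 1 µM, and control libraries from cells given DMSO. The study's methods call its E2 water soluble, and say that every compound was taken up in DMSO before dilution in medium. The other 4 libraries came from cells given PPT or DPN, nonsteroidal agonists selective for ERα and ERβ, at the same dose for the same time, and serve here only to show where E2 differed. A single cell line was used. The methods state more replicates per treatment than the libraries analysed here, and neither the labels nor the methods say that the 2 libraries of a group were separate cultures, so every p-value rests on a spread that may be technical.

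Poly(A) RNA was sequenced, and each value is a count of reads per gene. The 8 libraries held 25103160 to 29670814 counts. A gene was tested where it had enough counts in enough libraries (a minimum count of 10, by the rule of edgeR), and 15460 of the 26235 genes in the files passed. Levels are CPM, counts scaled to a common library total, after TMM scaling, which corrects for a few abundant genes taking reads from the others. A level written with ± is a mean with its SD over the 2 libraries. The test was edgeR's quasi-likelihood F test over all 8 libraries, and p-values carry a Benjamini-Hochberg adjustment across the tested genes. A gene was said to rise or fall at an adjusted p under 0.05, and was called at an adjusted p under 0.01 with a log2 fold change beyond 1.5 in either direction, the thresholds of the study's methods. SE, the standard error of a log2 fold change, was back-calculated as the size of that change over the square root of its F statistic. Error bars and 95% intervals rest on it.

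Estrogens act through nuclear receptors that bind DNA as ligand-activated transcription factors, and through a membrane receptor coupled to G proteins. In the hepatocyte, estrogens are known to alter the output of plasma proteins, lipoproteins, clotting factors and binding globulins. The receptor genes were looked at first. ESR1, which encodes ERα (GeneID 2099), had 0 counts in every one of the 8 libraries, and so did PGR, the progesterone receptor and a classic estrogen target (GeneID 5241). A count of 0 in the 2 control libraries allows up to 3 counts over the group, so very low expression was not detectable at this depth. ESR2, which encodes ERβ (GeneID 2100), had 8 and 6 counts in the control libraries and 1 and 1 with E2, too few to be tested. GPER1, the membrane receptor (GeneID 2852), had 16.1 and 16.2 CPM in the control libraries and 22.8 and 20.8 CPM with E2, a small rise (log2 fold change 0.43, SE 0.12, adjusted p = 0.00381) that did not pass under scaling by library size alone (adjusted p = 0.147). Of the estrogen receptors and classic estrogen targets, 14 of 20 could be tested, and 8 rose, 5 fell and 1 did not pass. TFF1, a secreted trefoil peptide that estrogen induces in breast cancer cells, had 0.677 and 1.32 CPM in the control and 9.93 and 9.22 CPM with E2 (log2 fold change 3.26, SE 0.29, adjusted p = 1.61e-10). GREB1, another target in breast cells, went from 113 ± 1.7 to 199.95 ± 3.73 CPM, and CTSD, a lysosomal protease, from 139 ± 1.66 to 338 ± 34.4 CPM. The chaperone regulator XBP1 fell (-0.87), as did PDZK1, a scaffold of membrane transporters (-1.08).

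The change with E2 was broad. Of the tested genes, 4767 rose (30.8%) and 4911 fell (31.8%), 62.6% in all, and 1106 were called higher (7.15%) and 460 called lower (2.98%). The 2 E2 libraries lay above both control libraries for 40.3% of the tested genes and below both for 40.8%. Rises made up 70.6% of the called genes under TMM and 54.6% under scaling by library size alone, which moved the median of all tested genes from -0.004 to -0.228 on the log2 scale. Under that scaling 3410 genes rose and 6753 fell. Changes below are relative to the TMM scale. The called-higher genes held 3.82% and 3.91% of the counts in the control libraries and 14.6% and 14.7% in the E2 libraries. The called-lower genes went from 2.68% and 2.68% to 0.476% and 0.478%. A gain of 100 CPM or more was seen for 378 genes, and a loss of that size for 195.

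**Figure D1:**
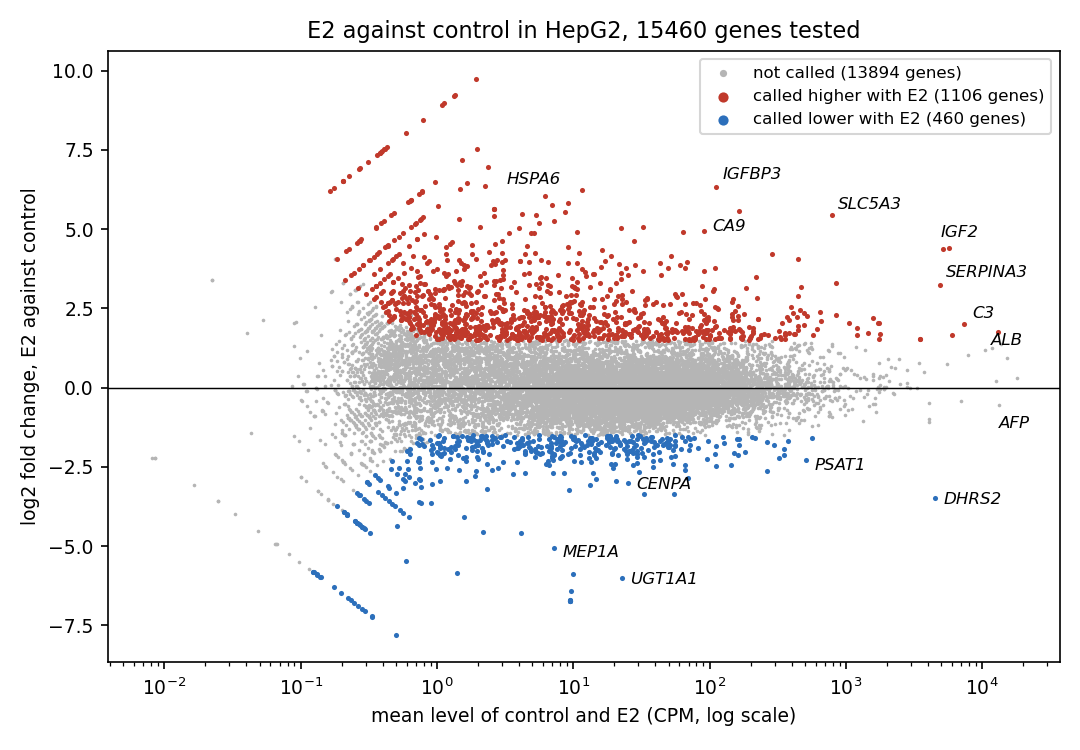
Each point is one of the 15460 tested genes, with the mean level of the control and E2 libraries (CPM, log axis) against the log2 fold change of E2 over control. Red marks the 1106 genes called higher and blue the 460 called lower. The fitted values in the diagonal streaks at low level belong to genes with few or no counts in 1 group and depend on the prior count of the fit.

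**Figure D2:**
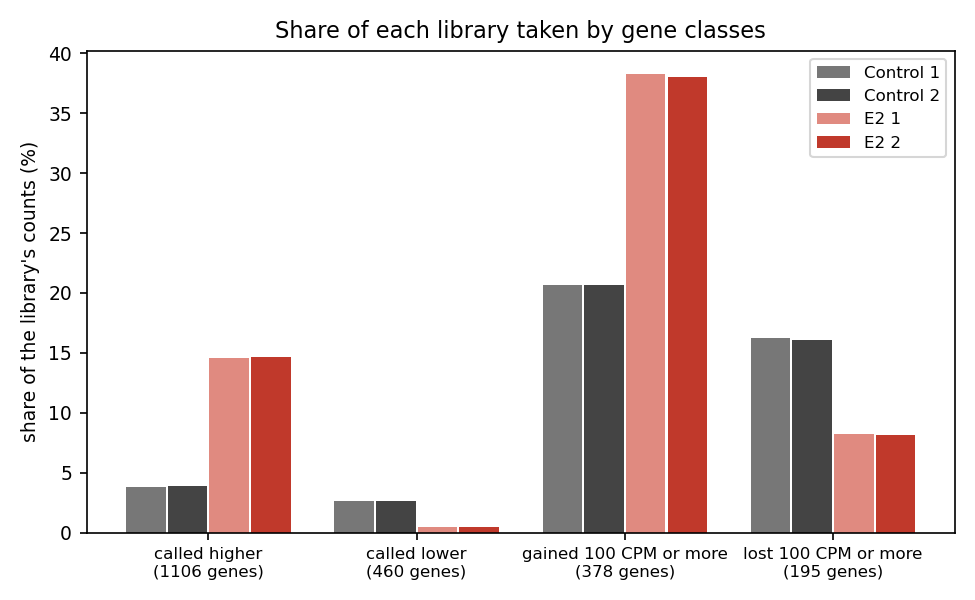
Bars give the share of each library's counts (%) held by the genes called higher, called lower, gaining 100 CPM or more and losing 100 CPM or more, with 1 bar per control and E2 library. The classes were chosen on these same libraries, so the plot shows the size of the shift and is no test of it. The called-higher genes go from under 4% to over 14% of the counts.

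The largest gains in CPM included those of several plasma protein genes. ALB, the albumin of plasma, stood at 10700.1 and 10114 CPM in the control libraries and 20126 and 20172 CPM with E2 (log2 fold change 0.95, SE 0.07, adjusted p = 1.37e-12). FN1, fibronectin of plasma and matrix, went from 5953 ± 21 to 20176 ± 151 CPM (log2 fold change 1.76, SE 0.05, adjusted p = 3.08e-20). A2M, a broad proteinase inhibitor, went from 7585 ± 308 to 19899.8 ± 116 CPM, and SERPINA1, α1-antitrypsin, from 6404 ± 40.6 to 14468 ± 1514 CPM. The cytoplasmic actin ACTG1 went from 6959 ± 169 to 16434 ± 522 CPM, whereas the other cytoplasmic actin, ACTB, rose by 0.36 (SE 0.06), which did not pass under scaling by library size alone (adjusted p = 0.0548). Among the largest losses were AFP, the fetal counterpart of albumin, from 15714 ± 496 to 10674 ± 74.6 CPM, the ferritin light chain FTL from 5384 ± 159 to 2689.6 ± 226 CPM, the fibrinogen chain FGG from 5465 ± 201 to 2604 ± 42.4 CPM, and APOA2, an apolipoprotein of high-density lipoprotein, from 1804 ± 55.9 to 871 ± 85.3 CPM. The 30 genes of hepatocyte and hepatoma identity were split, with 14 rises and 12 falls, and their median of 0.01 turned to -0.21 under library-size scaling. HNF4A, the master regulator of hepatocyte transcription, did not pass (log2 fold change -0.04, SE 0.06, adjusted p = 0.622). Of the hepatocyte factors, PROX1 (1.42) and ONECUT1 (2.46) rose and CEBPA fell (-0.88).

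The insulin-like growth factor (IGF) system held some of the largest rises. IGF2 is a fetal growth ligand, IGF1R its signalling receptor, and the IGFBP proteins carry the ligands and set how much is free. Of its 20 tested members, 15 rose, 3 fell and 8 were called higher, against 7.15% of all tested genes, and their median log2 fold change was 1.08, against -0.004 over all tested genes. IGF2 (GeneID 3481, chromosome 11 from 2129117 to 2149566 on GRCh38) had 508 and 513 CPM in the control libraries and 10927 and 10921 CPM with E2 (log2 fold change 4.42, SE 0.06, adjusted p = 3.89e-27). The replicates lay close together and the groups far apart. Its readthrough gene INS-IGF2 shares exons with it and carried almost the same values, so both are 1 measurement. IGFBP3, the main IGF carrier of serum (GeneID 3486, chromosome 7 from 45912245 to 45921272 on GRCh38), had 2.77 and 2.71 CPM in the control libraries and 217 and 222 CPM with E2, the largest rise among genes of at least 5 CPM (log2 fold change 6.32, SE 0.12, adjusted p = 7.25e-25). IGF1R went from 82.2 ± 2.05 to 369 ± 7.86 CPM, IGFBP1, a carrier that hepatocytes secrete in fasting, from 267 ± 3.57 to 964 ± 10.5 CPM, and IGFBP2 from 1.51 ± 0.544 to 11.9 ± 0.32 CPM. PAPPA, a protease that cleaves IGFBPs, went from 0.179 ± 0.157 to 8.24 ± 1.03 CPM (log2 fold change 5.47, SE 0.46, adjusted p = 7.85e-11). Against this direction, IGFBP7, a related secreted protein, fell by 2.14 on the log2 scale, and the IGF2 mRNA-binding proteins IGF2BP1 (-0.41) and IGF2BP3 (-0.40) fell slightly. The clearance receptor IGF2R did not pass (log2 fold change -0.03, SE 0.06, adjusted p = 0.665).

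Genes that low oxygen is known to induce rose almost without exception. Under normal oxygen, prolyl hydroxylases mark the α subunit of the hypoxia-inducible factor (HIF) for destruction. When oxygen falls, HIF persists and binds a short core, ACGTG, near its target genes. Of the 30 genes listed and tested, 28 rose, 1 fell and 25 were called higher, against 7.15% of all tested genes, and the median was 2.04. The exceptions were DDIT4, a brake on mTOR that fell slightly (-0.28), and the glucose transporter SLC2A1, which did not pass (log2 fold change 0.09, SE 0.06, adjusted p = 0.184). The letters ACGTG, searched on both strands in the 250 bases before the RefSeq start, were in 12 of the 25 listed genes with such a window (48%), in 23% of tested genes and in 25.1% of all genes called higher. DDIT4, which fell, holds the core too. A match is only a string of letters, and not a measured site. The shares of listed genes, here and below, describe the lists and not the response to E2. The windows of CA9, BNIP3 and INSIG2 are given because all of these genes rose and hold the core, which is in capitals as ACGTG or its reverse complement CACGT (RefSeq, GRCh38, 5′ to 3′ on the strand of the gene).
CA9, chr9:35673678-35673927: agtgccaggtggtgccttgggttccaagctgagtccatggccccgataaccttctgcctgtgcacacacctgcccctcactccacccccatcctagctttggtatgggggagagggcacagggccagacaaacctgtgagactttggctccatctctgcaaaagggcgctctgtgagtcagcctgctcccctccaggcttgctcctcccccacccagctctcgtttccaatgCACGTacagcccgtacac
BNIP3, chr10:131981924-131982173: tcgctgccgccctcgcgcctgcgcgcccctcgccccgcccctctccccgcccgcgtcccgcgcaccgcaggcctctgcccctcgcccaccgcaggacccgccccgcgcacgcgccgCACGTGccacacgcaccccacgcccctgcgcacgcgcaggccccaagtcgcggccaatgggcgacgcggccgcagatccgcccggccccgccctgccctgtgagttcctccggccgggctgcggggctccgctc
INSIG2, chr2:118088221-118088470: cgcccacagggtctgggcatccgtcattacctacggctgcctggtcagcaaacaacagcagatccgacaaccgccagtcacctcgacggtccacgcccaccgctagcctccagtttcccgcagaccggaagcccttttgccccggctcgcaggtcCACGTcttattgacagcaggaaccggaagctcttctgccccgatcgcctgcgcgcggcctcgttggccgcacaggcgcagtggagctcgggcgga

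CA9, a cell-surface carbonic anhydrase and a standard marker of hypoxia, had 5.55 and 5.93 CPM in the control libraries and 177 and 174 CPM with E2 (log2 fold change 4.93, SE 0.10, adjusted p = 8.21e-24). EGLN3, itself one of the prolyl hydroxylases and a HIF target, had 4.29 and 3.86 CPM and 126 and 121 CPM (log2 fold change 4.92, SE 0.13, adjusted p = 1.28e-21). In both genes each E2 library was above each control library, as in 40.3% of all tested genes. NDRG1, a stress-responsive gene, went from 50 ± 7.55 to 836 ± 50.7 CPM, and BHLHE40, a repressor that also acts in the clock, from 35.9 ± 0.768 to 402 ± 5.17 CPM. VEGFA, the main growth factor of blood vessels, rose from 142 ± 3.5 to 629 ± 0.404 CPM. BNIP3, which drives the removal of mitochondria, rose from 182 ± 7.5 to 709 ± 4.12 CPM, and INSIG2, which holds back sterol synthesis, from 143 ± 2.03 to 782 ± 14.6 CPM. ERO1A, an oxidase for protein folding, went from 199 ± 3.83 to 778 ± 21.5 CPM, and KDM3A, a histone demethylase, from 167 ± 10.3 to 549 ± 24.8 CPM. With PPT the median of the same list was -0.32 and with DPN 0.46, each against the same control libraries.

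**Figure D3:**
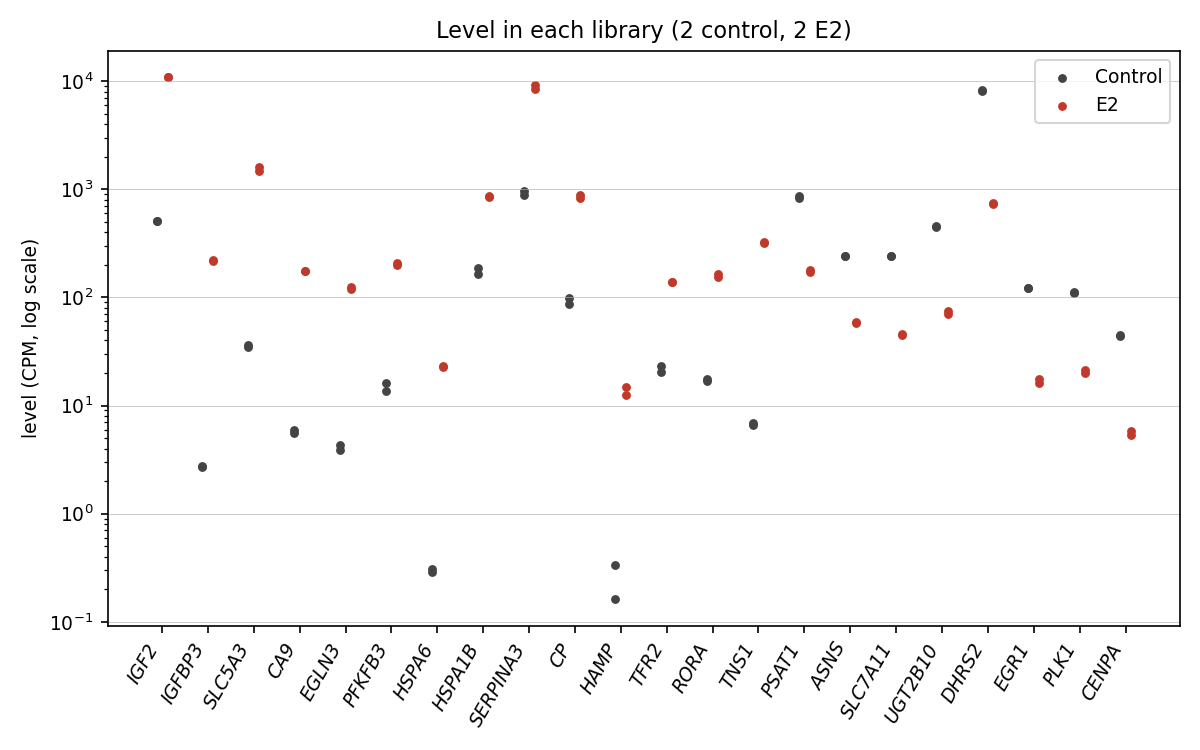
Points give the level of 22 named genes in each control library (grey) and each E2 library (red), in CPM on a log axis. For every gene shown, both E2 libraries lie on the same side of both control libraries. The same holds for most tested genes, with E2 above both controls in 40.3% and below both in 40.8%. The genes were chosen with their values known.

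The glycolytic enzymes rose in the same libraries. Of the 24 tested genes of glycolysis and lactate handling, 16 rose, 0 fell and 8 did not pass, with a median of 0.89. ENO2 went from 54.7 ± 1.01 to 391 ± 11.2 CPM, ALDOC from 30.3 ± 1.97 to 153 ± 0.916 CPM and the glucose transporter SLC2A3 from 199.7 ± 0.41 to 648 ± 10.2 CPM. HK1, the hexokinase of most tissues, went from 1.76 ± 0.71 to 22.4 ± 1.14 CPM (log2 fold change 3.67, SE 0.22, adjusted p = 4.51e-14), and HK2 from 332 ± 13.6 to 729 ± 7.51 CPM. PFKFB3 and PFKFB4, which make the activator of phosphofructokinase, rose by 3.78 and 3.05. The steps below them, PGK1 (1.30), ALDOA (1.20), PKM (0.96) and LDHA (0.91), rose by less from much higher levels.

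Plasma proteins of the acute phase, which the liver makes in larger amounts during inflammation, mostly rose. Of 20 tested, 15 rose and 4 fell, 9 were called higher, against 7.15% of all tested genes, and the median was 1.42. SERPINA3, α1-antichymotrypsin, had 890.1 and 965 CPM in the control libraries and 9188 and 8403 CPM with E2 (log2 fold change 3.25, SE 0.07, adjusted p = 6.01e-24). CP, the copper carrier ceruloplasmin, had 98.7 and 87.5 CPM and 824 and 875 CPM (log2 fold change 3.19, SE 0.07, adjusted p = 7.74e-23). C3, the central complement protein, went from 2916 ± 75.4 to 11730.1 ± 524 CPM, HP, the haemoglobin scavenger haptoglobin, from 154 ± 7.04 to 728 ± 14.8 CPM, ITIH3 from 106 ± 3.6 to 787 ± 22.4 CPM and FGL1 from 35.2 ± 0.753 to 196 ± 0.982 CPM. The fibrinogen chains moved apart, since FGB rose (1.30) and FGA (-0.48) and FGG (-1.07) fell. The orosomucoids ORM1 (-0.45) and ORM2 (-0.63) fell, and LRG1 did not pass (log2 fold change -0.05, SE 0.08, adjusted p = 0.61). With PPT the list's median was -0.73 and with DPN -0.19.

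Complement followed, with 14 of 27 members higher and 4 lower. C4A and C4B, which are near-identical copies and share reads, went from 905 ± 10.9 to 2602 ± 0.561 and from 1802 ± 23.8 to 5184 ± 4.15 CPM. C2 (1.34), C5 (1.26) and CFB (1.32) rose, as did SERPING1, the C1 inhibitor, from 2.63 ± 0.256 to 17.7 ± 0.0739 CPM, and C8B, of the membrane attack complex, from 3.03 ± 0.55 to 20 ± 0.605 CPM. Among clotting and fibrinolysis genes the directions were mixed, with 15 of 34 higher and 11 lower and a median of 0.22 that turned to -0.01 under library-size scaling. Without E2 replicate 1 this median was 0.04, and without E2 replicate 2 it was 0.37. The clotting factor F5 rose from 196 ± 6.7 to 639 ± 3.9 CPM, prothrombin F2 from 404 ± 1.19 to 731 ± 0.2 CPM and PLG, plasminogen, from 7.98 ± 0.0695 to 43.3 ± 0.524 CPM. Falls included TFPI (-0.92) and PROS1 (-0.91), both anticoagulants, and SERPINC1, antithrombin (-0.78). The fibrinogen chains, which form the clot, went both ways as given above. F2, TFPI, PROS1 and SERPINC1 were chosen after their values were seen, so no split by function is read from them.

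Iron genes changed at several points of the pathway. Hepcidin, made from HAMP, is the liver hormone that blocks iron export. HAMP had 0.161 and 0.339 CPM in the control libraries and 14.9 and 12.6 CPM with E2 (log2 fold change 5.77, SE 0.33, adjusted p = 1.69e-14). TFR2, a sensor of transferrin that controls HAMP, had 20.2 and 23.3 CPM and 137 and 138 CPM (log2 fold change 2.67, SE 0.09, adjusted p = 2.08e-19). Both genes were higher in each E2 library, as were 40.3% of all tested genes, and HAMP stayed a low-abundance transcript. The receptor TFRC went from 437 ± 1.53 to 1131 ± 28.5 CPM, transferrin, TF, from 5198 ± 13.5 to 10576 ± 947 CPM and the iron importer SLC11A2 from 66.3 ± 2.37 to 158 ± 3.73 CPM. The ferritin chains FTL (-1.001) and FTH1 (-0.32) fell, and the exporter SLC40A1 did not pass (log2 fold change 0.06, SE 0.07, adjusted p = 0.497). In all, 12 of 21 iron genes rose and 4 fell.

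Of 25 tested heat shock and cochaperone genes, 16 rose, 3 fell and 6 did not pass. The heat shock factor binds inverted GAA units, and the letters GAANNTTC were searched on either strand of the same windows. They were in 10 of 22 listed genes (45.5%), in 4.29% of tested genes and in 4.01% of all genes called higher. With a further GAA unit beginning after 2 more bases, the match was left in 4 listed genes. It was in 0.296% of tested genes and 0.267% of all genes called higher. HSPB8, which fell, holds the shorter string too. The windows of the largest risers with matches are shown with the shorter string in capitals.
HSPA6, chr1:161524290-161524539: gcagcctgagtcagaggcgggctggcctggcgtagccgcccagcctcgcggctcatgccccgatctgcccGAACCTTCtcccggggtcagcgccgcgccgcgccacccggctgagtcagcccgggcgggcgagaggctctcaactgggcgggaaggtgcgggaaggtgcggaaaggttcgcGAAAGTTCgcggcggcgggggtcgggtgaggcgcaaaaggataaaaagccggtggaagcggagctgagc
HSPA1A, chr6:31815293-31815542: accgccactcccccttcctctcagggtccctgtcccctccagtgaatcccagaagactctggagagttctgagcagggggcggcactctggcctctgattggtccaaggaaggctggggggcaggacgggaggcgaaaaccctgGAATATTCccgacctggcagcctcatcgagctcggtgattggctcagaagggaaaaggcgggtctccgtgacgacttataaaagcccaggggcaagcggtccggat

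HSPA6, an HSP70 protein that is nearly silent without stress, had 0.29 and 0.305 CPM in the control libraries and 22.5 and 23 CPM with E2 (log2 fold change 6.24, SE 0.26, adjusted p = 3.42e-17). Its near-identical copy HSPA7, a pseudogene, had 0.29 and 0.339 and 17.8 and 18.1 CPM, and reads of the pair may have been split between them. HSPA1A and HSPA1B, which also differ by few bases, went from 133 ± 14.3 to 681 ± 28.9 and from 177 ± 16.4 to 855 ± 18.9 CPM. HSPH1, a nucleotide exchange factor for HSP70, went from 134 ± 1.05 to 549 ± 16.6 CPM. The constitutive HSP90 genes HSP90AA1 (0.62) and HSP90AB1 (0.39) rose by less. HSPB8, a small heat shock protein, fell by 3.38 on the log2 scale (0.494 ± 0.123 to 0.0434 ± 0.00185 CPM). Its E2 level lay under the floor of 3 counts (0.12 and 0.114 CPM in the E2 libraries). The size of this fall therefore depends on the prior count of the fit.

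SLC5A3, which carries myo-inositol with sodium into the cell, showed one of the largest gains of a single transporter. It had 34.8 and 36.3 CPM in the control libraries and 1467 and 1607 CPM with E2 (log2 fold change 5.43, SE 0.08, adjusted p = 5.75e-27). NFAT5, the transcription factor of the response to hypertonic medium, went from 106 ± 10.1 to 282 ± 25.6 CPM, and the kinase WNK1, which senses chloride, from 124 ± 1.83 to 259 ± 14.9 CPM. The other osmolyte carriers did not share one direction, since SLC6A12, for betaine, rose (1.20) and SLC6A6, for taurine, fell (-0.95). Of 18 tested genes of osmolyte transport and tonicity, 10 rose, 6 fell and 2 did not pass. Only 1 was called higher and 2 were called lower, against 7.15% and 2.98% of all tested genes. The median of 0.32 was 0.10 under library-size scaling. The β subunit of the sodium pump, ATP1B1, rose from 299.8 ± 0.271 to 801 ± 2.03 CPM, as did the small modulators of the pump, FXYD1, from 0.369 ± 0.34 to 14.1 ± 2.9 CPM, and FXYD2, from 2.57 ± 0.19 to 11.4 ± 0.0265 CPM. Of 16 tested genes of the sodium pump and FXYD list, 9 rose and 3 fell. SLC28A1, a nucleoside carrier, went from 0.362 ± 0.0808 to 17 ± 0.596 CPM, and SLC1A2, a glutamate carrier, from 55.3 ± 2.69 to 267 ± 17.5 CPM.

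Genes of fasting and of lipid use rose in part. FOXO factors drive genes of gluconeogenesis and of growth arrest when insulin signalling is low. Of 21 such genes, 14 rose and 3 fell, with a median of 0.83. G6PC1, the last enzyme of glucose output, had 3.03 and 3.66 CPM in the control libraries and 41.5 and 40.8 CPM with E2 (log2 fold change 3.62, SE 0.14, adjusted p = 7.93e-18). PCK1, the gluconeogenic PEP carboxykinase, went from 5.89 ± 0.331 to 48.4 ± 2.39 CPM, and PPARGC1A, the coactivator of both genes, from 33.2 ± 1.87 to 147 ± 3.15 CPM. INSR, the insulin receptor, rose (0.83), while SESN3, a FOXO target, fell (-2.70). Of the peroxisome proliferator-activated receptors, PPARG went from 8.44 ± 0.00783 to 47.5 ± 3.96 CPM and PPARA from 62.9 ± 6.67 to 153 ± 6.12 CPM. CPT1A, the gate of fatty acid entry into mitochondria, rose from 38.6 ± 0.143 to 117 ± 1.81 CPM, whereas CPT2, the next step, fell from 39.3 ± 3.41 to 18.3 ± 1.61 CPM. In fat storage, the droplet protein PLIN2 rose from 116 ± 0.706 to 671 ± 32.5 CPM, and DGAT2, which makes triglyceride, fell from 60.4 ± 0.572 to 18.2 ± 0.573 CPM. The 24 oxidation genes and PPAR targets therefore held 11 rises and 11 falls.

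Nuclear receptor genes were split. Of 33 tested, 14 rose, 11 fell and 4 were called higher, against 7.15% of all tested genes. Their median of 0.18 turned to -0.05 under library-size scaling, and was 0.06 without Control replicate 1, 0.27 without Control replicate 2, 0.07 without E2 replicate 1 and 0.27 without E2 replicate 2. RORA, an activator of the clock gene BMAL1, had 16.7 and 17.7 CPM in the control libraries and 154 and 166 CPM with E2 (log2 fold change 3.21, SE 0.09, adjusted p = 7.49e-21). NR1D1, the repressor of the same gene, had 9.8 and 11.7 CPM and 49.1 and 49.3 CPM (log2 fold change 2.20, SE 0.12, adjusted p = 7.51e-15). NFIL3 went from 177 ± 2.24 to 586 ± 27.6 CPM. Of 19 clock genes, 11 rose, 3 fell and 5 did not pass. NR4A1, an early-response receptor, rose from 5.44 ± 0.651 to 34 ± 1.88 CPM. NR1I2, the xenobiotic receptor PXR, fell from 11.7 ± 0.0345 to 3.8 ± 0.0696 CPM, and EGR1, a zinc finger protein of the early growth response, from 122 and 121 CPM in the control libraries to 17.7 and 16.3 CPM (log2 fold change -2.84, SE 0.08, adjusted p = 1.13e-20).

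Matrix and adhesion genes mostly rose, and growth factor genes were more mixed. Of 28 tested growth factors and receptors, 15 rose, 6 fell and 7 did not pass. Of 33 genes of TGF-β and BMP signalling, 21 rose and 7 fell. The growth factors and receptors named below all rose, so the falls are not shown. Of 36 tested matrix genes, 24 rose and 6 fell, and of 40 genes of integrins, focal adhesions and actin, 23 rose and 4 fell. PLOD2, which hydroxylates lysines of collagen, went from 286 ± 16.6 to 1415 ± 83.2 CPM, the collagen COL2A1 from 23.8 ± 0.298 to 146 ± 5.43 CPM and LOXL2, a collagen crosslinker, from 1.29 ± 0.279 to 20 ± 0.145 CPM. TNS1, a link between integrins and actin, had 6.97 and 6.54 CPM in the control libraries and 326 and 321 CPM with E2 (log2 fold change 5.58, SE 0.11, adjusted p = 1.18e-24). CCN2, a well-known target of TGF-β and YAP, did not pass (log2 fold change -0.10, SE 0.07, adjusted p = 0.262). EGFR, the receptor of epidermal growth factor, went from 14.3 ± 0.571 to 111 ± 0.979 CPM, its ligand TGFA from 20.5 ± 0.999 to 64.2 ± 1.1 CPM and PDGFB from 2.68 ± 0.0939 to 40.3 ± 0.119 CPM. INHA, the inhibin α subunit, went from 0.677 ± 0.0464 to 20.6 ± 0.325 CPM and FST, which binds activin, from 56.2 ± 1.15 to 163 ± 6.5 CPM. The ligand TGFB1 rose (1.57).

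Among the falls, mitosis was the most uniform. Of 40 listed genes of mitosis and the spindle, 39 fell, 29 were called lower against 2.98% of all tested genes, and only SPC25, of the kinetochore, rose (0.32). That rise did not pass under library-size scaling (adjusted p = 0.461), without Control replicate 1 (0.153) or without E2 replicate 1 (0.0989). The median was -1.95. These genes are switched on in late cell cycle by complexes that bind the cell cycle homology region, TTTGAA, and CCAAT boxes. The letters TTTGAA were in 20 of 34 windows of these genes (58.8%), in 20.3% of all genes called lower and in 8.87% of tested genes. CCAAT was in 79.4%, 49% and 35%. SPC25, which rose, holds TTTGAA too. The windows of PLK1, CENPA and CDC20 are shown with TTTGAA, or its reverse complement, in capitals.
PLK1, chr16:23678639-23678888: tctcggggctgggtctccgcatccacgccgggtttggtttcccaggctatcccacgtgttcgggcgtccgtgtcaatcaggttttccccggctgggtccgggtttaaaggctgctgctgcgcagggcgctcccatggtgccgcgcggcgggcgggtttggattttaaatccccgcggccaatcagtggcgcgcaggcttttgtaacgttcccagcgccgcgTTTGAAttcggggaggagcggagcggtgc
CENPA, chr2:26785806-26786055: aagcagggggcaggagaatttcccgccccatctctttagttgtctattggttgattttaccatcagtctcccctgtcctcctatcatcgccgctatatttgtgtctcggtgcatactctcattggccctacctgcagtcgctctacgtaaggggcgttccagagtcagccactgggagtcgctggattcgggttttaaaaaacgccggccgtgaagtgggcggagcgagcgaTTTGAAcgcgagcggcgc
CDC20, chr1:43358731-43358980: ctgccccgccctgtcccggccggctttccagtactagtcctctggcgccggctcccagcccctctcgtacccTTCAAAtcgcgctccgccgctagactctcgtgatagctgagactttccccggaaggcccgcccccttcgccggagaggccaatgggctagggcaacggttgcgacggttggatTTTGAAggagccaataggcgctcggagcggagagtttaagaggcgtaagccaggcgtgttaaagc

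PLK1, the kinase that starts mitosis, had 111 and 111 CPM in the control libraries and 21.1 and 20 CPM with E2 (log2 fold change -2.43, SE 0.10, adjusted p = 8.96e-18). CENPA, the histone of the centromere, had 44.4 and 45.2 CPM and 5.77 and 5.39 CPM (log2 fold change -3.004, SE 0.13, adjusted p = 6.14e-17). The groups did not overlap in either gene, but E2 lay below both controls in 40.8% of all tested genes. BIRC5, survivin, fell from 113 ± 1.84 to 18.6 ± 1.91 CPM, TOP2A, the topoisomerase that separates sister chromatids, from 561 ± 19.6 to 148 ± 7.18 CPM, CCNB1, cyclin B1, from 157 ± 3.96 to 33.3 ± 4.09 CPM, AURKA from 178 ± 5.38 to 42.1 ± 2.01 CPM and CDC20 from 40.7 ± 3.79 to 8.6 ± 0.462 CPM. Fewer dividing cells and less RNA per dividing cell cannot be told apart in bulk RNA. DNA replication fell by less, with 35 of 40 genes lower and a median of -0.97. The nucleotide reductase subunit RRM2 fell from 129.99 ± 2.69 to 34.5 ± 4.94 CPM and PCNA, the sliding clamp, from 329 ± 2.55 to 137 ± 0.835 CPM, while the polymerase subunit POLD1 did not pass (log2 fold change 0.14, SE 0.16, adjusted p = 0.451). The letters TTTNGCGC, a core bound by E2F factors, were in 32.4% of the replication genes, 2.47% of tested genes and 2.19% of all genes called lower.

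This fall was not particular to E2. The median of the mitosis list was -1.87 with PPT and -2.35 with DPN, and that of the replication list -1.28 and -1.45, all set against the same 2 control libraries. Compared directly, 20 of the 40 mitosis genes were higher with E2 than with the mean of PPT and DPN, 2 were lower and 18 did not pass, where 33.3% of all tested genes were higher and 33.1% lower. PLK1 changed by -2.01 with PPT and -3.41 with DPN. Among regulators of the cycle, the inhibitor CDKN1A did not pass with E2 (log2 fold change -0.12, SE 0.07, adjusted p = 0.162), cyclin D1, CCND1, rose (0.74) and the inhibitor CDKN2C fell (-2.12).

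A second uniform fall was that of the amino acid response. ATF4 is the transcription factor that cells make when amino acids run short, and it turns on serine and asparagine synthesis, amino acid carriers and tRNA synthetases. Of 29 tested genes, 24 fell, 10 were called lower, against 2.98% of all tested genes, and 3 rose, with a median of -1.25. The letters TGATGNAA, of the composite element that ATF4 binds, were in 4 of 23 windows (17.4%). They were in 1.55% of those of tested genes and 4.38% of those of all genes called lower. The match in ASNS, which fell, is in capitals.
ASNS, chr7:97872409-97872658: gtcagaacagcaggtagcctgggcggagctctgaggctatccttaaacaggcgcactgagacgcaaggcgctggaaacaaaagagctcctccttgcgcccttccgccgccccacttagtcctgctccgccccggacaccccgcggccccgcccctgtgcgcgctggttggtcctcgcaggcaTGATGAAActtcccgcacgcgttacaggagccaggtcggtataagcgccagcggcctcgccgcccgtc

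ASNS, asparagine synthetase, had 242 and 242 CPM in the control libraries and 57.8 and 58.8 CPM with E2 (log2 fold change -2.05, SE 0.08, adjusted p = 2.37e-18). PSAT1, of serine synthesis, had 864 and 828 CPM and 178 and 170.5 CPM (log2 fold change -2.28, SE 0.06, adjusted p = 6.08e-21). Both replicate pairs were tight and the fall was several times their spread. PHGDH, the first enzyme of that pathway, fell from 255 ± 16.6 to 72.5 ± 6.06 CPM, SHMT2, of mitochondrial folate metabolism, from 238 ± 10.8 to 78.2 ± 2.78 CPM, MTHFD2 from 517 ± 3.41 to 183 ± 11.5 CPM, and TRIB3, a pseudokinase that ATF4 induces, from 571 ± 1.96 to 132 ± 9.64 CPM. SLC7A11, the cystine carrier, fell from 243 ± 1.62 to 45.1 ± 0.754 CPM, and ATF4 itself from 331 ± 14.6 to 147 ± 2.1 CPM. Those that rose were STC2 (1.04), GDF15 (0.66) and VLDLR (0.48). With PPT and DPN the medians of this list were 0.41 and -0.28. Lower with E2 than with the mean of the agonists were 22 of the 29 genes, against 33.1% of all tested genes. Genes of the unfolded protein response had no common direction, with 7 rises and 10 falls among 26. HERPUD1 (-1.11) and CALR (-0.78) fell, and DNAJB9 rose (0.73).

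Most genes of the antioxidant response fell. NRF2 is the factor that turns on antioxidant genes, and of 28 of its targets and glutathione genes 23 fell and 3 rose, with a median of -0.61. TXNRD1, thioredoxin reductase, had 312 and 301 CPM in the control libraries and 102 and 106 CPM with E2 (log2 fold change -1.56, SE 0.06, adjusted p = 1.64e-17). NQO1, a quinone reductase, fell from 448 ± 6.45 to 206 ± 12.9 CPM and SRXN1 from 93.5 ± 0.52 to 38.3 ± 1.41 CPM. PPT and DPN had the other sign for this list, with medians of 0.86 and 0.46. TXNRD1 changed by 1.75 and 1.75 with them, and its log2 difference between E2 and their mean was -3.31.

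Conjugating enzymes of phase II, which attach sugars, sulfate or glutathione to drugs and steroids, included large falls. Of 28 tested, 23 fell, 14 were called lower, against 2.98% of all tested genes, and 2 rose, with a median of -1.5. UGT1A1, which conjugates bilirubin and estradiol (GeneID 54658, chromosome 2 from 233760270 to 233773300 on GRCh38), had 46 and 42.9 CPM in the control libraries and 0.805 and 0.59 CPM with E2 (log2 fold change -5.99, SE 0.18, adjusted p = 1.43e-20). The other UGT1A genes share all exons but the first with it, so they are not independent measurements and inflate the count of falls. UGT1A4, for example, had 19.7 and 17.8 CPM in the control libraries and 0.224 and 0.126 CPM with E2, under UGT1A1 in each. UGT2B10 fell from 451 ± 4.86 to 72.2 ± 3 CPM and UGT2B11 from 36.4 ± 0.131 to 4.67 ± 0.476 CPM, in a family whose copies also share reads. DHRS2, a short-chain dehydrogenase (GeneID 10202, chromosome 14 from 23630115 to 23645639 on GRCh38) and one of the most abundant transcripts of the control cells, had 8148 and 8289 CPM there and 753 and 736 CPM with E2 (log2 fold change -3.46, SE 0.07, adjusted p = 6.01e-24). ADH4, an alcohol dehydrogenase, fell from 100.5 ± 3.89 to 9.82 ± 1.12 CPM. Cytochromes P450 were mixed, with 10 of 21 higher and 6 lower, and CYP1A1, a target of the aryl hydrocarbon receptor, rose from 3.58 ± 0.272 to 16.4 ± 1.56 CPM.

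**Figure D4:**
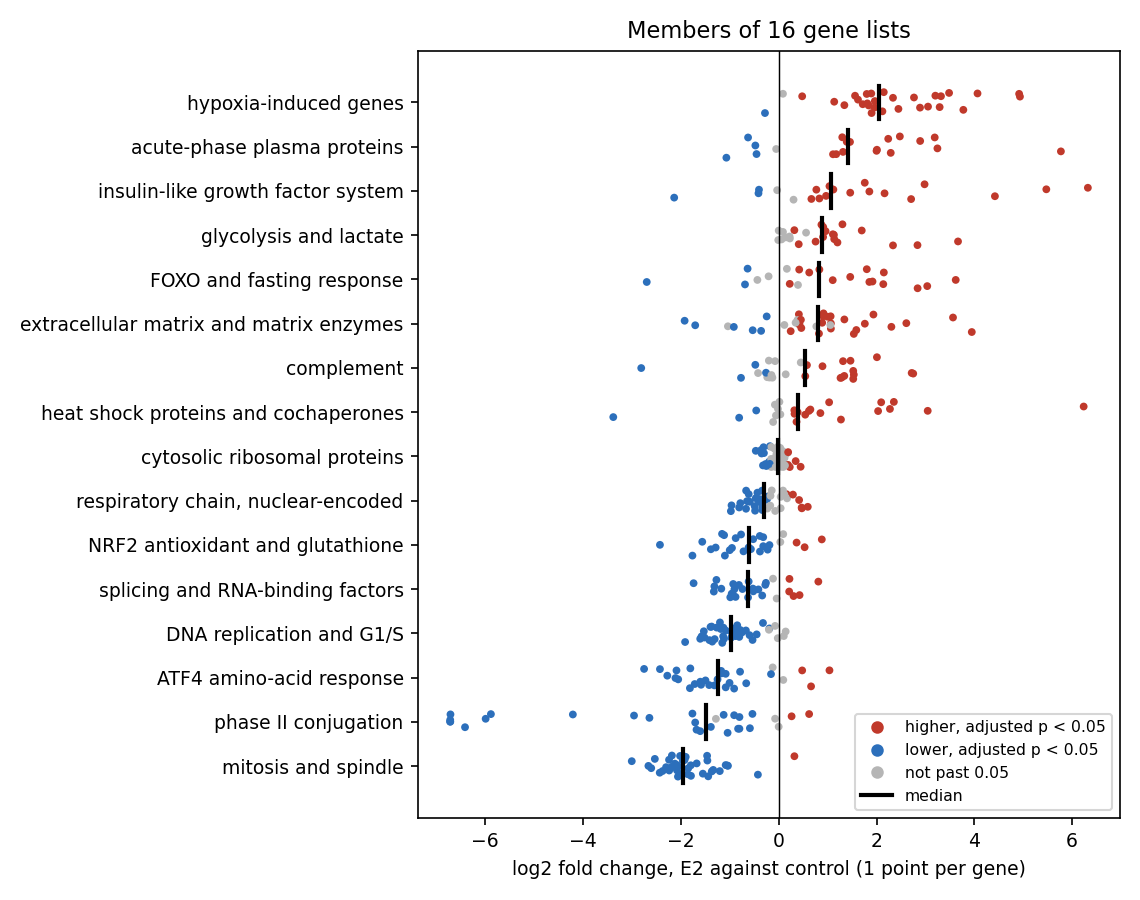
Each point is the log2 fold change of E2 over control for 1 tested member of 16 gene lists, red for higher and blue for lower at an adjusted p under 0.05 and grey for the rest, and black bars are list medians. Hypoxia and acute-phase genes lie mostly to the right and mitosis and phase II genes to the left, with medians from 2.04 to -1.95.

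Housekeeping groups moved little or fell modestly. Of 56 cytosolic ribosomal protein genes 39 did not pass, 12 fell and 5 rose, and their median of -0.02 went to -0.24 under library-size scaling and to 0.01 under upper-quartile scaling. Nuclear genes of the respiratory chain fell in 25 of 44 cases and rose in 6, for example NDUFV2 from 135 ± 1.55 to 69.2 ± 1.75 CPM. Splicing and RNA-binding factors fell in 21 of 28 cases, with a median of -0.62. TRA2B fell from 196 ± 3.52 to 58.5 ± 1.79 CPM, SRSF1 from 317 ± 4.61 to 131 ± 10.8 CPM and the cold-inducible RBM3 from 543 ± 6.36 to 216 ± 14.5 CPM. In contrast the nuclear noncoding RNAs MALAT1 and NEAT1 rose, from 64.5 ± 16.5 to 224 ± 80.6 and from 119 ± 1.97 to 381 ± 28.4 CPM.

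Some genes had counts in only 1 of the 2 groups. FXYD3, another modulator of the sodium pump, had 0 and 0 counts in the control libraries and 93 and 86 with E2, at least 67-fold higher when the control group is set at its floor of 3 counts. NRN1, a neurite growth protein, had 57 and 68 counts with E2 and SCTR, the secretin receptor, 57 and 65, at least 46.8-fold and 45.7-fold higher. ATOH8, a transcription factor that acts on HAMP, had 48 and 53 counts, at least 37.8-fold higher. In the other direction, ETV1, an ETS factor, had 27 and 33 counts in the control libraries and 0 with E2, at least 17.8-fold lower, and HOXA7 had 17 and 15, at least 9.5-fold lower. MUC4 shows the limit of such counts, as its 2 control libraries held 2 and 36 and its E2 libraries 0.

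Several rises lay next to each other on the chromosome. Around S100A3 on chromosome 1, 7 of 12 tested genes within 150 kb on each side were called higher, where 7.15% of all tested genes were, among them S100A6 (12.7 ± 0.488 to 98.3 ± 23.5 CPM), S100A4 (1.13 ± 0.414 to 17.3 ± 0.215 CPM), S100A16 (17.4 ± 1.89 to 72.4 ± 3.91 CPM) and S100A3 itself (0.228 ± 0.179 to 10.3 ± 0.563 CPM), all coding for small calcium-binding proteins. Of their neighbours, S100A13 did not pass (log2 fold change -0.18, SE 0.14, adjusted p = 0.296), S100A1, beyond it, rose without being called (0.90), and CHTOP (-0.64) and ILF2 (-0.60), farther on, fell. Around FXYD1 on chromosome 19, 8 of 11 were called higher, against the same 7.15%, among them HPN, the surface protease hepsin (40.4 ± 0.617 to 139 ± 8.53 CPM), FXYD1 and HAMP. LGI4 and FXYD5 in the same stretch had 0 and 1 and 2 and 0 counts in the control libraries and 41 and 47 and 11 and 10 with E2. FXYD5 was no longer called without Control replicate 2 or E2 replicate 1 (edgeR adjusted p = 0.107 and 0.0514). USF2, between LSR and HAMP, did not pass (log2 fold change 0.19, SE 0.10, adjusted p = 0.0899). Around KLKB1 on chromosome 4, 4 of 5 tested genes were called higher, against the same 7.15%. They were TLR3 (0.21 ± 0.25 to 3.64 ± 0.799 CPM), CYP4V2 (6.69 ± 0.35 to 24 ± 3.15 CPM), KLKB1 (0.562 ± 0.0197 to 1.94 ± 0.236 CPM) and F11 (18.4 ± 1.09 to 54.3 ± 1.92 CPM). The antisense gene F11-AS1 rose without being called (1.45). At the IGF2 locus on chromosome 11, the antisense gene IGF2-AS (0.0992 ± 0.00348 to 2.49 ± 0.354 CPM) and MRPL23-AS1 (2.02 ± 0.794 to 6.78 ± 0.478 CPM) were called higher too, but the methods do not say whether strand was used in counting, so reads of overlapping genes cannot be told apart. These runs were picked after their values were seen and are given as a description.

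**Figure D5:**
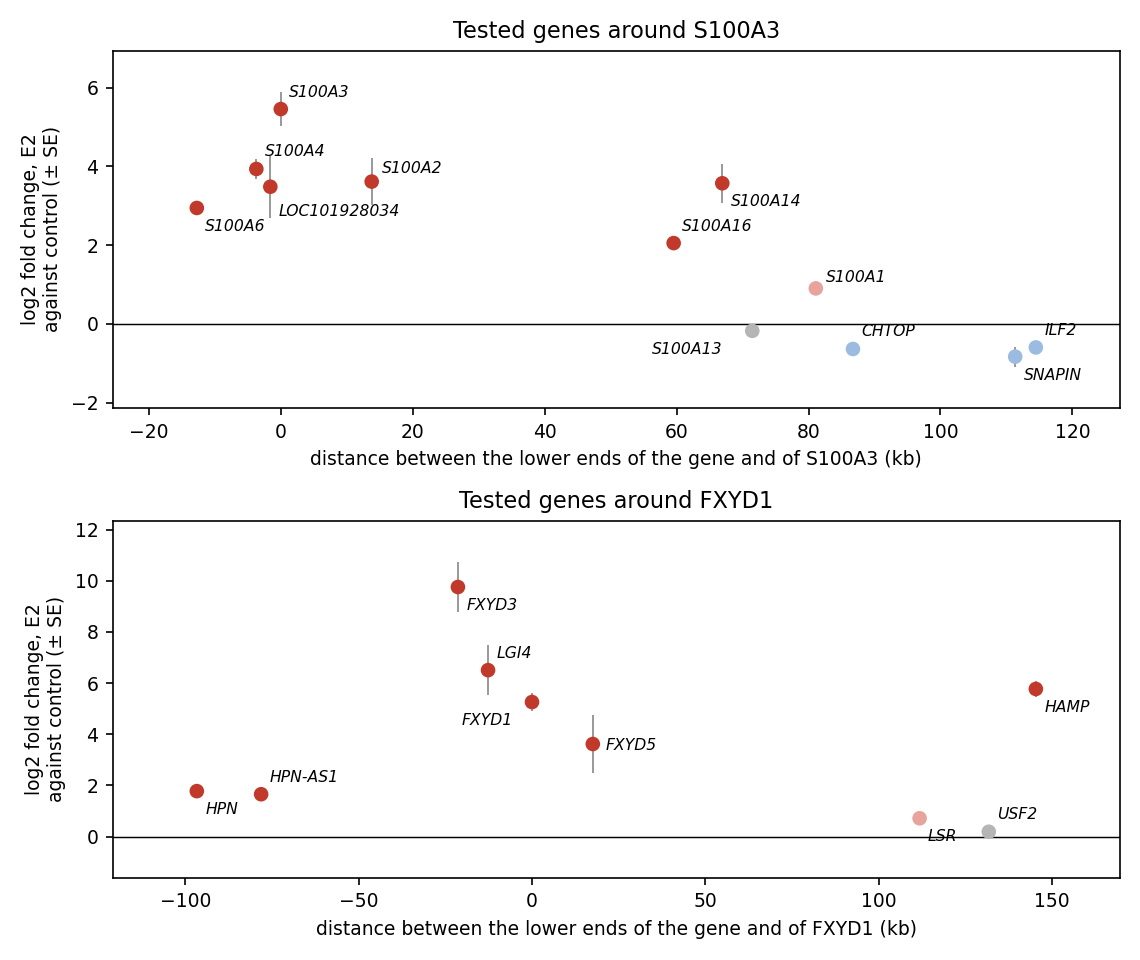
Log2 fold change of E2 over control with its standard error for the tested genes around S100A3 and around FXYD1, from 100 kb below to 150 kb above the named gene, against the distance in kb between the lower ends of each gene and of the named one. Red marks called genes, pale red and pale blue genes that changed without being called, and grey genes that did not pass. The fitted values of FXYD3, LGI4 and FXYD5 rest on few or no control counts and depend on the prior count.

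By class of gene, long noncoding RNAs were called higher in 12.1% of 1227 tested and lower in 2.04%, and protein-coding genes in 6.4% and 3.18% of 13353. Of 14 tested small nuclear RNAs, 12 were called higher (85.7%), with a median of 1.78. Poly(A) RNA was sequenced, and whether its capture differed between the E2 and control libraries was not tested. Genes of 5 to 20 CPM were called higher in 6.08% of cases, and those of 1 to 5 CPM in 13.9%, so the share of calls moved with level as well. The estrogen response palindrome, taken as GGTCA followed after any 3 bases by its reverse complement, was in 2 of 11832 windows of tested genes and in 0 of 749 windows of called-higher genes. A window without them says only that these letters are not in those 250 bases.

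Set directly against the mean of PPT and DPN, E2 gave 1235 genes called higher (7.99%) and 459 called lower (2.97%). This contrast shares the E2 libraries with the one above, so it adds no second sample of E2. At an adjusted p under 0.05, 33.3% of all tested genes were higher with E2 than with the agonists and 33.1% lower. Hypoxia-induced genes were higher in 28 of 30 cases, with a median difference of 2.09, and acute-phase genes in 17 of 20, with 2.09. The largest difference among genes of at least 5 CPM was that of ANXA13, a membrane-binding annexin, at 6.92 (95% interval 6.20 to 7.63), and it was 4.03 above the control. TNNI2, a muscle troponin, differed by 6.45 and CA9 by 5.94. Lower with E2 than with the agonists were AKR1B10, an aldo-keto reductase under NRF2, with a log2 difference of -4.05, and ADH4, with -4.05. AKR1B10 rose by 2.86 with PPT and 2.24 with DPN and fell with E2 (-1.5). The ribosomal protein genes, close to the control with E2, were higher with E2 than with the agonists in 41 of 56 cases, against 33.3% of all tested genes. Their median difference was 0.27.

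Markers of other cell types were looked at by list. The summed level of the endothelial list was 5 and 4.95 CPM in the control libraries and 9.97 and 9.39 CPM with E2, and that of the fibroblast and stellate list 34.8 and 35.5 CPM and 54.4 and 54.2 CPM. In the endothelial list CDH5 (0.18 ± 0.111 to 3.43 ± 0.33 CPM) and VWF (0.482 ± 0.134 to 3.06 ± 0.0996 CPM) rose and PECAM1 fell (3.47 ± 0.206 to 1.1 ± 0.168 CPM), while KDR and CLDN5 had too few counts to be tested. Among leukocyte markers LYZ, lysozyme, made up nearly all of the sum of 1225 and 1201 CPM in the control and 1559 and 1537 CPM with E2, and PTPRC and CD3E had too few counts to be tested. Cholangiocyte markers summed to 700.4 and 676 CPM in the control and 1229 and 1232 CPM with E2, and 5 of 6 rose, among them SPP1 (268 ± 1.41 to 536 ± 13.1 CPM) and SOX9 (225 ± 20.4 to 409 ± 0.954 CPM), while KRT7 and MMP7 had too few counts to be tested. Markers of luminal breast lines summed to 110 and 122 CPM and 328 and 297 CPM, nearly all of it AZGP1 (114 ± 8.08 to 299 ± 21.6 CPM), and all 4 that could be tested rose, while GATA3 had too few counts. Their part in the results was not tested.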

How the data were processed

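The authors sequenced poly(A) RNA of HepG2 cells as strand-specific single-end reads and deposited raw read counts per Entrez gene for each library, on GRCh38.p10 per the labels. The methods name only the standard Illumina pipeline, and the counter is not given in the sources used here. The deposited counts were used unchanged, and 99.4% of the genes matched a RefSeq symbol. Counts were fitted with edgeR 4.0.16 in R 4.3.3 over all 8 libraries with TMM scaling, filterByExpr at a minimum count of 10 and a minimum total of 15, and quasi-likelihood F tests with Benjamini-Hochberg adjustment. The biological coefficient of variation was 6.8%. Depth was 25103160 to 29670814 counts, and a floor of 3 counts covers counting error only. The steps were tested on simulated data. Alternatives were other scalings and filters, DESeq2 1.42.0, 4 libraries alone, a replicate block and each library left out. The positions of promoter windows are those of RefSeq on GRCh38.p14.

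The members and lists were chosen with earlier results of these data known. Named genes were the 25 largest rises and falls of called genes of at least 5 CPM with groups not overlapping, the 10 largest gains and losses in CPM, up to 8 changed members per list by p, genes without counts in 1 group, some fixed genes, and the 10 largest differences each way from PPT and DPN. Of 212 named genes, 47 fall outside this rule and were chosen after their values were seen, namely ATF4, C8B, CCN2, CDC20, CDKN1A, CEBPA, CHTOP, CPT2, DDIT4, ERO1A, F2, FTH1, FXYD5, GDF15, HPN, HSP90AB1, HSPB8, IGF2-AS, IGF2BP1, IGF2BP3, IGF2R, IGFBP7, ILF2, KDM3A, KLKB1, LGI4, LRG1, MRPL23-AS1, ONECUT1, ORM1, ORM2, PAPPA, PKM, POLD1, PROS1, S100A1, S100A13, SERPINC1, SERPING1, SLC2A1, SLC40A1, SLC6A12, SPC25, TFPI, TLR3, USF2 and VLDLR. Some genes that the rule names are not reported here.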

Additional observations from a re-analysis of the deposited data

How the results depend on the processing

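Scaling mattered most. With library size alone, 698 genes were called lower in place of 460, and rises made up 54.6% of calls in place of 70.6%. The changed genes were then 3410 higher and 6753 lower, in place of 4767 and 4911. Every other setting kept the counts of called and changed genes, against the control and against the agonists, within 1.5 times. Leaving out 1 library gave 920 to 970 genes called higher, 418 to 442 called lower and 67.9% to 69.8% rises, 3988 to 4182 changed higher and 4302 to 4493 changed lower, and against the agonists 1068 to 1283 higher and 412 to 463 lower. With DESeq2, 1018 and 417 genes were called. Of 2755 values for named genes under the alternatives, 2727 kept direction and side of the threshold. Most of these genes were named for large or clear changes in these same libraries, so this is no test of stability. Of 831 list medians under the alternatives, 177 moved beyond the spread between replicates. Of these, 62 moved under library-size scaling and 26 under library size without the 100 most abundant genes. Among genes that did not pass, POLD1 (-0.082), SLC2A1 (-0.137), SLC40A1 (-0.167) and USF2 (-0.035) changed sign under library-size scaling, where SLC2A1 and SLC40A1 then passed (adjusted p = 0.0352 and 0.0406), and SLC40A1 did so without the 100 most abundant genes (-0.027). In leave-one-out edgeR fits the sign changed for CCN2 (-0.238 to 0.027), LRG1 (-0.121 to 0.007), S100A13 (-0.459 to 0.058) and SLC40A1 (-0.034 to 0.123), and CCN2 passed as a fall without Control replicate 2 (adjusted p = 0.0203), as did S100A13 without E2 replicate 1 (0.0202). FXYD5 lost its call without Control replicate 2 or E2 replicate 1 (adjusted p = 0.107 and 0.0514), and the rise of SPC25 did not pass without Control replicate 1 or E2 replicate 1 (0.153 and 0.0989). Under library-size scaling ACTB, GPER1 and SPC25 no longer passed, and HNF4A, IGF2R, CDKN1A, CCN2, LRG1 and S100A13 passed as falls. USF2 passed as a rise in the fit of 4 libraries. Same-numbered control and E2 libraries did not deviate together (correlation 0.0233, and -0.0645 to 0.0233 over all pairs of groups). With 2 libraries a group, this cannot show whether same-numbered libraries shared a culture or a day. The main fit did not pair them. A replicate block gave 1078 genes called higher and 445 lower.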

Other observations

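Several further gene lists held both rises and falls. Of 14 tested chemokines and receptors, 6 rose and 4 fell. CXCL16, a membrane-bound chemokine, rose from 38.4 ± 0.41 to 252 ± 1.52 CPM and CCL20, which attracts lymphocytes and dendritic cells, from 83.4 ± 5.44 to 222 ± 27.5 CPM, whereas CCL16 fell from 8.57 ± 0.394 to 2.09 ± 0.678 CPM. Of 31 interferon-response and antigen-presentation genes, 11 rose and 10 fell, IFI6 from 7.08 ± 1.49 to 32.1 ± 1.52 CPM among the rises and the peptide transporter TAP1 from 43.2 ± 1.24 to 26.5 ± 0.547 CPM among the falls. Their median of 0.04 turned to -0.19 under library-size scaling.

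Junction and keratin genes fell in 14 of 27 cases and rose in 8. DSP, which encodes the desmosome protein desmoplakin, rose from 569 ± 13.6 to 2609.99 ± 30.7 CPM, while CLDN1, of tight junctions, fell from 127 ± 0.935 to 50.4 ± 3.47 CPM and CDH2, N-cadherin, from 123 ± 4.83 to 58.4 ± 0.951 CPM. In the lysosome and autophagy list, 18 of 37 fell, led by MAP1LC3B, a protein of the autophagosome membrane, from 462 ± 7.25 to 131 ± 11.6 CPM, and 11 rose, CTSB among them, a lysosomal protease, from 744 ± 18.6 to 1152 ± 87.5 CPM. Apolipoproteins and lipoprotein genes rose in 13 of 26 cases, and their median of 0.19 turned to -0.03 under library-size scaling. APOL1, a minor apolipoprotein of high-density lipoprotein, rose from 37.2 ± 1.96 to 262 ± 16.6 CPM and APOC3, which slows triglyceride clearance, from 79.2 ± 2.66 to 267 ± 14.4 CPM.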
